A study of Mus musculus with 6 samples.

Results

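Small nucleolar RNAs (snoRNAs) were followed in E13.5 male primordial germ cells (PGCs) as the genes whose mouse symbol begins with Snora or Snord and a digit, and members were chosen by symbol alone. Such a symbol was found for 99 of the 23837 named genes on the array, 34 of the H/ACA class (Snora) and 65 of the C/D class (Snord). The group as such was selected on the log2 differences between genotypes of these same 6 arrays, so those differences are given as a description and support nothing. RNA came from 3 samples labelled Fancg-/- (og2.fvb.fancg -/-) and 3 WT samples (og2.fvb.fancg +/+), hybridised to Affymetrix Mouse Gene 2.0 ST arrays. All 6 samples carried the OG2 transgene, an EGFP reporter under the distal enhancer of Oct3/4, and PGCs were sorted by its fluorescence from E13.5 male gonads. Each sample held 10000 PGCs pooled from at least 5 embryos, and the cDNA was amplified from 500 pg of total RNA with the Nugen Ovation Pico V2 protocol. Fancg encodes a subunit of the Fanconi anemia core complex, which acts in the repair of DNA crosslinks.

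snoRNAs are short RNAs of the nucleolus that work as guides within protein complexes (snoRNPs). C/D snoRNAs pair with ribosomal or spliceosomal RNA and direct 2′-O-methylation by fibrillarin, and H/ACA snoRNAs direct pseudouridylation by dyskerin. A few do not modify but take part in the cleavage and folding of the ribosomal RNA precursor. In mammals most snoRNAs are cut out of the introns of a host gene, which is often a ribosomal protein gene or a long noncoding RNA gene, and a few have a promoter of their own.

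Values are deposited RMA signals on a log2 scale, and a difference is the Fancg-/- mean minus the WT mean of these. Signals of different probe sets do not rank the amounts of different RNAs, so only differences are set side by side between genes. Array medians ran from 4.73 to 4.79, and pairs of arrays correlated at 0.989 to 0.994 across genes. Fancg itself had signals of 6.39, 6.65 and 6.87 in the Fancg-/- samples, against 6.07, 5.95 and 6.37 in WT samples. Whether its probes lie inside the disrupted part could not be read from the labels or the methods. The value is therefore no check of the labels, on which every direction rests. All 10 germ cell markers were measured, and their mean lay between 9.52 and 9.54 in the Fancg-/- arrays and between 9.41 and 9.51 in the WT arrays. At an unadjusted limma p under 0.05, 2 of the 10 were higher and 0 lower in Fancg-/- samples. Only 3 of the 10 differed above 0, and their median difference was -0.03. Over all genes 6.23% were higher and 6.17% lower at this threshold. Of 6 fetal Leydig cell markers 5 were measured, and all 5 were lower in Fancg-/- samples at an unadjusted p under 0.05, with a mean signal of 4.001 to 4.73 in the Fancg-/- arrays and 5.72 to 6.35 in the WT arrays. At the same threshold 4 of 6 endothelial markers were higher, and 3 of 6 stroma markers and 1 of 6 Sertoli cell markers were lower in Fancg-/- samples. Only 1 of the 6 Sertoli cell markers differed above 0, and their median difference was -0.47. Of 6 macrophage markers 1 was higher and 1 lower, and of 4 measured blood markers 1 was lower. The part of these cells in the snoRNA values was not tested.

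The C/D snoRNAs lay mostly below 0 and the H/ACA snoRNAs were split around 0. Over the 65 C/D snoRNAs the median log2 difference was -0.17, and 48 were lower and 17 higher in the Fancg-/- mean than in the WT mean. Over the 34 H/ACA snoRNAs the median was 0.10, and 20 were higher and 14 lower in the Fancg-/- mean. All 99 together had a median of -0.11, with quartiles at -0.34 and 0.16 and a range from -1.004 for Snord37 to 1.42 for Snord13. The median over all 23837 named genes was 0.01, with quartiles at -0.10 and 0.12. The class medians depended on single arrays. Without Fancg-/- 3 the C/D median was -0.36 and that of the H/ACA class turned to -0.02, whereas without Fancg-/- 1 they were -0.06 and 0.16.

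**Figure D1:**
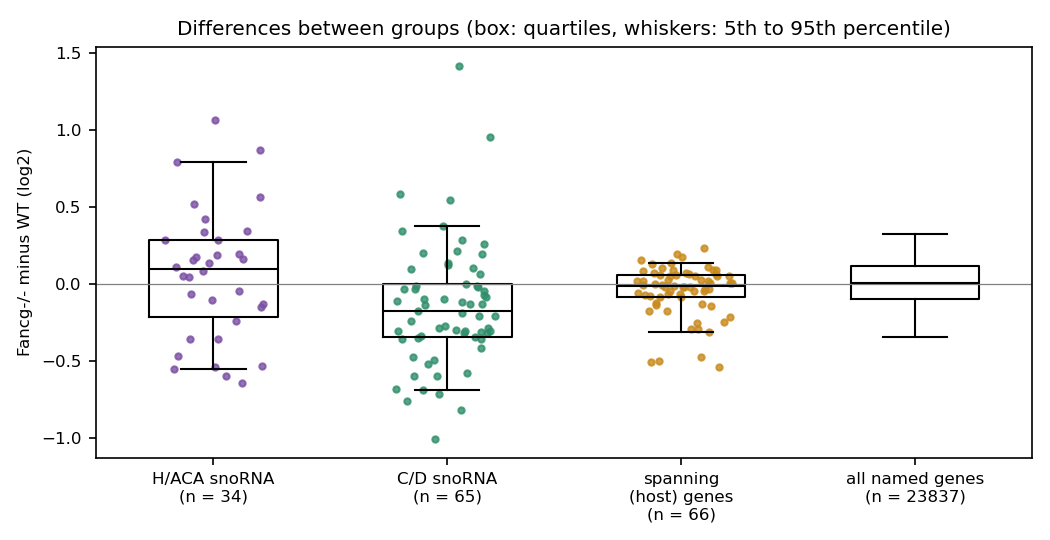
Log2 differences (Fancg-/- minus WT, vertical axis) of the 34 H/ACA snoRNA genes, the 65 C/D snoRNA genes, the 66 measured genes that span them and all 23837 named genes; each point is a gene, boxes give quartiles and medians, and whiskers run to the 5th and 95th percentiles. Both snoRNA classes spread further from 0 than the spanning genes, and the C/D median lies below 0 at -0.17.

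No snoRNA passed the test across genes. By limma with Benjamini-Hochberg adjustment, 0 of 99 snoRNAs and 0 of 23837 genes were called at an adjusted p under 0.05, and the adjusted p of the snoRNAs ran from 0.147 for Snora69 upward. At an unadjusted p under 0.05 there were 8 snoRNAs higher and 13 lower in Fancg-/- samples, beside 6.23% and 6.17% of all genes, and an equal-variance test per gene also called 0 genes after adjustment. The groups did not overlap for 17 snoRNAs, with all Fancg-/- arrays above all WT arrays for 8 (8.08%; 9.45% of all genes) and below for 9 (9.09%; 8.45% of all genes). More than 1.5-fold with an unadjusted p under 0.05 were 6 snoRNAs higher (6.06%; 0.839% of all genes) and 6 lower (6.06%; 0.969% of all genes), and 16 of 99 exceeded 1.5-fold in either direction at any p (16.2%; 1.96% of all genes). Single arrays moved these counts. Without Fancg-/- 1 there were 2 lower past the fold (1.24% of all genes) and without WT 2 there were 3 (0.864%), whereas without Fancg-/- 3 there were 17 (1.26%). The lower count without overlap was 35 without Fancg-/- 3 (13.5% of all genes) and 17 without WT 1 (14.5%), and the higher one was 15 without WT 2 (14.1%) and 13 without WT 1 (17.2%). Since the group was selected on this contrast, nothing is read from these counts.

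The spread between arrays of 1 genotype was large for snoRNAs. This spread is not independent of how the group was selected. The selection used differences on these same arrays, and a gene with a large spread can differ widely through its spread alone. The part of the selection in the values below was not tested. The SD of the snoRNAs within groups (pooled over both genotypes, log2 scale) had a median of 0.30, with quartiles at 0.21 and 0.43. The median SD of all named genes was 0.14. It lay above that median for 94 of 99 snoRNAs (94.9%), in 33 of 34 H/ACA and 61 of 65 C/D genes. Only 4 snoRNAs were among the dimmest 25% of genes. Among the 50 snoRNAs at or above the median signal of the group the SD had a median of 0.27, against 0.11 over the 7490 genes with a signal at or above the same value. The genes that span the snoRNAs had a median SD of 0.11, the 539 microRNA genes on the array 0.18 and the 8 small Cajal body RNA (Scarna) genes 0.19. The 8 other rows that RefSeq annotates as snoRNA had a median SD of 0.35, above that of the members. The SD was larger in the Fancg-/- group for 53 snoRNAs and in the WT group for the rest.

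**Figure D2:**
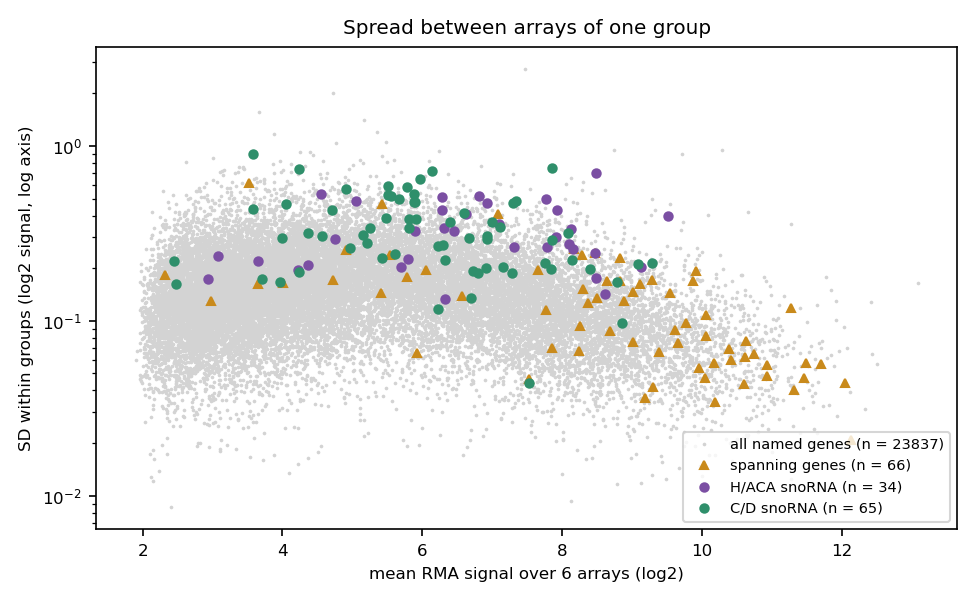
SD within groups (log2 signal, vertical log axis) against the mean RMA signal over 6 arrays (log2, horizontal axis) for all 23837 named genes (grey), the 66 spanning genes (triangles) and the H/ACA and C/D snoRNA genes (circles), 1 point a gene. The snoRNAs lie in the upper part of the cloud at nearly every signal, with a median SD of 0.30 against 0.11 for the genes that span them.

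Among the snoRNAs the spread ran from an SD of 0.044 for Snord23 to 0.90 for Snord61. Snord23, which lies in Nop53, had signals of 7.52, 7.49 and 7.56 in Fancg-/- samples, against 7.56, 7.47 and 7.57 in WT samples. Snord61, a C/D snoRNA in Rbmx, had 4.15, 3.94 and 2.82 in Fancg-/- samples, against 2.91, 2.89 and 4.74 in WT samples. In Snord61 a single array of each genotype stood apart from its group in opposite directions, and its difference of 0.13 turned below 0 when any 1 of 4 arrays was left out, reaching -0.19 without WT 2. Snord89, which no annotated gene spans, had 4.96, 6.45 and 6.84 in Fancg-/- samples and 6.35, 5.93 and 6.33 in WT samples, so that only Fancg-/- 1 was low and the difference of -0.12 was 0.44 without it.

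The arrays differed in the signal of the snoRNAs as a whole. By the methods the cells were sorted into lysis buffer of the RNeasy micro kit. How fully RNAs as short as snoRNAs were recovered in each sample was not tested. Fancg-/- 1 was the low one, with a median deviation of -0.26 from the mean of each snoRNA over 6 arrays, and it held the lowest of the 6 signals for 47 of 99 snoRNAs (47.5%; 16.4% of all genes). Fancg-/- 2 lay at -0.04 and Fancg-/- 3 at 0.20, against 0.00 for WT 1, 0.13 for WT 2 and 0.04 for WT 3. The highest of the 6 signals fell in WT 2 for 31 snoRNAs and in Fancg-/- 3 for 26. Arrays of the Fancg-/- group therefore stood at both ends of the order, with all 3 WT arrays between Fancg-/- 1 and Fancg-/- 3. In the C/D class Fancg-/- 1 was lowest for 34 of 65 genes and deviated by -0.26, and in the H/ACA class it was lowest for 13 of 34 and deviated by -0.17. The genes that span the snoRNAs deviated by only -0.03 on the same array, with the lowest signal there for 21 of 66, and the median over all genes was 0.01. The 4 measured blood markers had array means of 3.30 to 5.07 in the Fancg-/- group and 3.75 to 4.74 in the WT group. Among them the embryonic globin gene Hbb-y had 10.33, 8.38 and 3.77 in Fancg-/- samples, against 8.63, 8.56 and 5.19 in WT samples. It was thus highest on Fancg-/- 1 and lowest on Fancg-/- 3, the arrays at the low and the high end for snoRNAs, and the part of blood RNA in this was not tested.

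**Figure D3:**
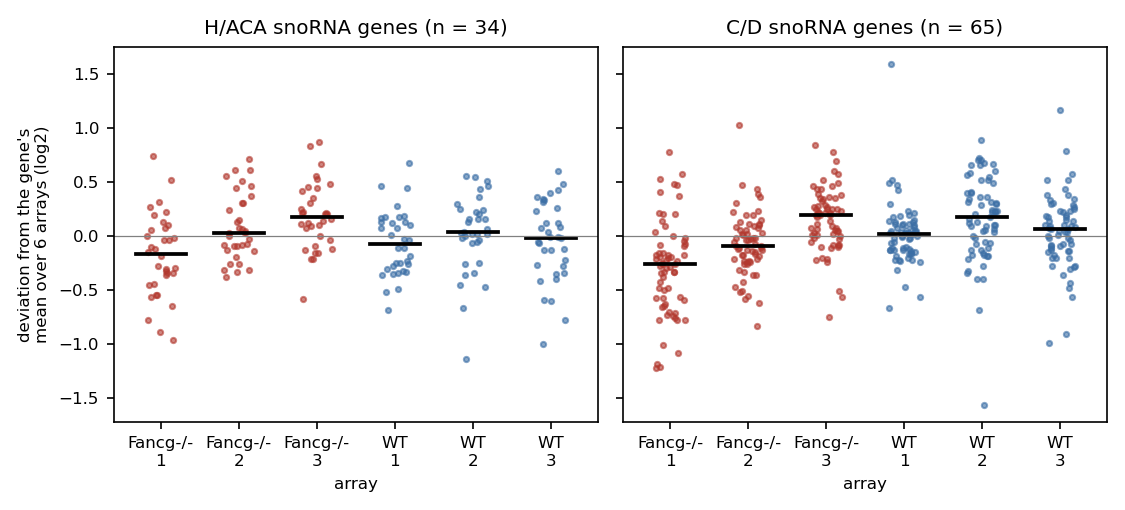
Deviation of each snoRNA gene from its own mean over the 6 arrays (log2, vertical axis), by array, with the 34 H/ACA genes in the left panel and the 65 C/D genes in the right; points are genes and bars are medians. Fancg-/- 1 is the lowest and Fancg-/- 3 the highest array in both panels, with C/D medians of -0.26 and 0.20.

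Of the snoRNAs that act on the ribosomal RNA precursor other than as guides of methylation or pseudouridylation, Snord13 (U13) and Snord118 (U8) lay higher in Fancg-/- samples without overlap. Snord13, which in human cells is required for acetylation of small-subunit rRNA, had 8.38, 8.88 and 8.44 in Fancg-/- samples, against 8.28, 6.30 and 6.87 in WT samples. The difference was 1.42 (SE 0.44, limma adjusted p = 0.28), the largest of the 99, but WT 1 lay close to the Fancg-/- arrays and the WT SD was 1.02, against 0.27 in the Fancg-/- group. Without WT 1 the difference was 1.99, and without WT 2 it was 0.99. Snord118, which in Xenopus is needed to make the large-subunit rRNAs, had 5.80, 5.86 and 5.44 in Fancg-/- samples, against 5.41, 5.10 and 4.95 in WT samples (0.55, SE 0.16, adjusted p = 0.23). Snord13, Snord118 and Snord89 are the 3 members with no annotated gene around them, and in vertebrates Snord13 and Snord118 are known to be transcribed from promoters of their own.

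The other snoRNAs known to act in precursor cleavage lay on both sides of 0. Snora73a and Snora73b (U17), both within Snhg3 and much alike in sequence, had differences of 0.52 and 0.29. Snora73a measured 6.25, 6.91 and 6.49 in Fancg-/- samples, against 6.75, 5.83 and 5.51 in WT samples, so that WT 1 again lay among the Fancg-/- arrays. Snord22 (U22), in Snhg1, had 8.53, 8.72 and 8.84 in Fancg-/- samples and 8.68, 9.03 and 8.93 in WT samples (-0.19). Snord14e (U14), in Hspa8, had 8.82, 8.61 and 8.76 in Fancg-/- samples, against 8.95, 9.09 and 8.95 in WT samples. Its groups did not overlap, with a difference of -0.27 (SE 0.10, adjusted p = 0.33), and Snord14a, of the same family but in Rps13, lay at -0.32 with groups that overlapped.

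Among the guides of pseudouridylation, 3 H/ACA snoRNAs lay higher in Fancg-/- samples without overlap. Snora62, in Rpsa, had 6.63, 6.20 and 6.45 in Fancg-/- samples, against 5.55, 5.64 and 4.89 in WT samples (1.07, SE 0.21, adjusted p = 0.16). Snora52, in Rplp2, had 8.33, 8.57 and 8.79 in Fancg-/- samples, against 7.45, 7.46 and 8.17 in WT samples (0.87, SE 0.21, adjusted p = 0.20). Snora69, in Rpl39, had 4.74, 4.36 and 4.74 in Fancg-/- samples, against 3.96, 3.88 and 3.63 in WT samples (0.79, SE 0.14, adjusted p = 0.15). All 3 lie within ribosomal protein genes. With 1 array left out, their differences ran from 0.70 for Snora69 to 1.21 for Snora62. The sign cannot turn in this way where the groups do not overlap, so the kept sign shows nothing further. The spanning gene Rpsa, which encodes a protein of the small ribosomal subunit, had a difference of -0.13, and Rplp2 and Rpl39 were not analysed here.

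Another 3 H/ACA snoRNAs lay lower in Fancg-/- samples without overlap. Snora23, in the importin gene Ipo7, had 7.51, 8.06 and 7.94 in Fancg-/- samples, against 8.44, 8.71 and 8.27 in WT samples (-0.64, SE 0.17, adjusted p = 0.21). Snora34, in Kansl2, had 4.0, 3.985 and 4.20 in Fancg-/- samples, against 4.81, 4.82 and 4.35 in WT samples (-0.60, SE 0.14, adjusted p = 0.20). Snora21, in Rpl23, had 8.27, 8.64 and 8.40 in Fancg-/- samples, against 8.73, 8.77 and 8.87 in WT samples (-0.36, SE 0.11, adjusted p = 0.29). In Snora23 the lowest array was Fancg-/- 1, as it was for the whole group, whereas in Snora34 the 3 Fancg-/- arrays lay close together and WT 3 was the nearest WT array. The spanning genes lay near 0, with differences of 0.16 for Ipo7, 0.02 for Kansl2 and -0.06 for Rpl23.

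Of the remaining C/D snoRNAs, 3 lay higher in Fancg-/- samples without overlap. Their class was read from the symbol, and their targets were not examined. Snord15a (U15), in Rps3, had 6.03, 5.48 and 5.69 in Fancg-/- samples, against 5.12, 4.86 and 4.35 in WT samples (0.96, SE 0.21, adjusted p = 0.18). Snord110, in Nop56, had 6.02, 5.63 and 6.07 in Fancg-/- samples, against 5.41, 5.50 and 5.04 in WT samples (0.59, SE 0.16, adjusted p = 0.23). Snord83b, in Rpl3, had 7.21, 6.84 and 6.71 in Fancg-/- samples, against 6.63, 6.55 and 6.45 in WT samples (0.38, SE 0.14, adjusted p = 0.34). The gap between the groups was narrow for Snord83b and Snord110, whose nearest arrays differed by less than the SD within groups, and the difference of Snord83b was 0.23 without Fancg-/- 1. So narrow a gap was also seen for Snord13, Snord118, Snora52, Snora21, Snora23, Snora34, Snord15b, Snord64, Snord82 and Snord85.

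The C/D snoRNAs that lay lower without overlap were led by Snord111 and Snord15b. Snord111, in the splicing factor gene Sf3b3, had 3.69, 3.16 and 3.89 in Fancg-/- samples, against 4.18, 4.50 and 4.50 in WT samples (-0.82, SE 0.19, adjusted p = 0.19). Snord15b, in Rps3 like Snord15a, had 5.90, 6.04 and 5.72 in Fancg-/- samples, against 6.26, 6.94 and 6.53 in WT samples (-0.69, SE 0.18, adjusted p = 0.21). Snord82, in the nucleolin gene Ncl, had 6.03, 6.70 and 6.43 in Fancg-/- samples, against 6.74, 6.90 and 7.25 in WT samples (-0.58, SE 0.19, adjusted p = 0.30). Fancg-/- 1 was the lowest array only for Snord82 of these. Snord64, which belongs to the imprinted Snhg14 transcript of the Prader-Willi region, had 4.74, 4.71 and 4.75 in Fancg-/- samples, against 4.96, 5.63 and 5.03 in WT samples (-0.47, SE 0.17, adjusted p = 0.33). Snhg14 itself differed by -0.47 (SE 0.16, adjusted p = 0.31) with groups that overlapped, and the difference of Snord64 was -0.26 without WT 2. Snord85, another C/D snoRNA, had 3.85, 4.14 and 4.18 in Fancg-/- samples, against 4.36, 4.63 and 4.23 in WT samples (-0.35, SE 0.14, adjusted p = 0.35).

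**Figure D4:**
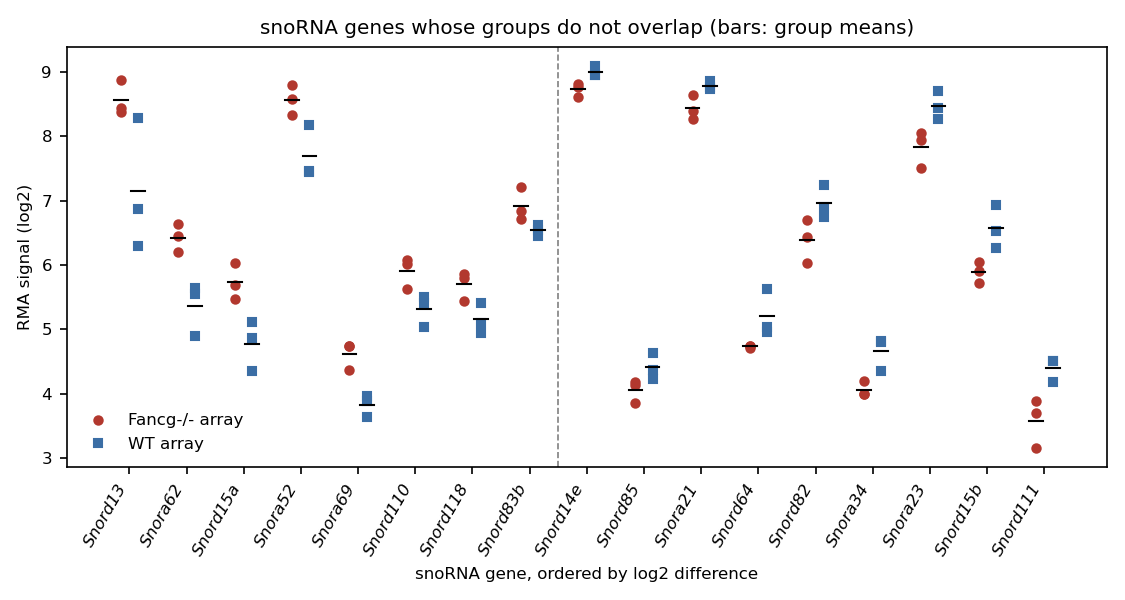
RMA signal (log2, vertical axis) of the 17 snoRNA genes whose groups do not overlap, with the 3 Fancg-/- arrays (circles) left of the 3 WT arrays (squares) and bars at group means; the dashed line parts the 8 higher genes from the 9 lower ones. Genes run from a difference of 1.42 for Snord13 to -0.82 for Snord111, and levels of different genes are not comparable.

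Several of the widest differences came with groups that overlapped. Snord37, in the elongation factor gene Eef2, had the lowest difference, -1.004 (SE 0.44, adjusted p = 0.41), from 3.52, 3.999 and 3.67 in Fancg-/- samples, against 5.82, 3.84 and 4.54 in WT samples. WT 1 was far above the other WT arrays, and without it the difference was -0.46. Snora20, in Tcp1, had 8.35, 9.01 and 8.98 in Fancg-/- samples, against 9.17, 7.36 and 8.10 in WT samples, and its difference of 0.57 ranged from 0.14 without WT 2 to 1.05 without WT 1. Snord71, within Ap1g1, had 4.75, 5.61 and 6.49 in Fancg-/- samples, against 6.20, 6.67 and 6.11 in WT samples, and its difference of -0.71 was -0.28 without Fancg-/- 1. WT 1 was thus the highest WT array for Snord13, Snora20, Snora73a and Snord37, although over all 99 snoRNAs its median deviation was 0.00.

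Of the 8 snoRNAs with the highest signals, Snora20 was the one with a difference above 0. Snora81, in Eif4a2, had 8.75, 9.39 and 9.63 in Fancg-/- samples, against 9.41, 10.03 and 9.92 in WT samples (-0.53, adjusted p = 0.44), and its difference was -0.28 without Fancg-/- 1. Snord104, in Gm36220, had 9.19, 9.30 and 9.34 in Fancg-/- samples, against 8.97, 9.38 and 9.53 in WT samples (-0.02). Snora3, in Rpl27a, had 8.94, 8.99 and 9.35 in Fancg-/- samples and 9.13, 9.35 and 8.995 in WT samples (-0.07), and Snord100, in Rps12, differed by -0.11. The groups overlapped in each of these 4, and for Snord104, Snora3 and Snord100 the sign of the difference turned when 1 array was left out.

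A gene was found around 96 of the 99 snoRNAs in the RefSeq annotation, and there were 75 such genes, of which 66 were measured. A ribosomal protein gene spanned 34 snoRNAs and a long noncoding RNA gene 24. The annotation used gives no strand for these spans, so a gene that spans a snoRNA may lie on the opposite strand, and the array does not separate a mature snoRNA from the precursor or intron that holds it. In bulk samples fewer cells with an RNA and less of it per cell cannot be told apart. The spanning genes had a median difference of -0.01, between -0.54 for Snhg18 and 0.24 for Snhg12, and none reached 1.5-fold. Of 78 snoRNAs with exactly 1 spanning gene that was measured, 39 had a difference of the same sign as that gene and in 61 the snoRNA differed more in size. The snoRNAs also spread more between arrays of 1 genotype, with a median SD of 0.30 against 0.11 for the spanning genes. The part of this spread in these counts and in the correlation below was not tested. Across these 78 pairs the Spearman correlation of the differences was 0.008, given as a description since pairs share genes and arrays.

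Values from the same arrays were also read by the 20 genes that each span at least 2 snoRNAs, 46 in all. In 11 of the 20 the snoRNAs lay on both sides of 0. Rps3 was the widest, with Snord15b at -0.69 and Snord15a at 0.96, both with groups that did not overlap, while Rps3 itself differed by 0.07 (10.72, 10.60 and 10.65 in Fancg-/- samples, 10.64, 10.61 and 10.52 in WT samples). Kansl2 held Snora34 at -0.60 and Snora2b at 0.42 and itself differed by 0.02. Nop56, whose protein is a core part of C/D snoRNPs, held Snord57 at -0.34 and Snord110 at 0.59 and itself differed by 0.18. The 4 snoRNAs in Rpl13a ran from -0.52 for Snord34 through -0.31 for Snord35a and 0.00 for Snord33 to 0.26 for Snord32a. In the rest the snoRNAs of 1 gene lay on the same side of 0. Snora81 and Snord2 in Eif4a2 differed by -0.53 and -0.49 although Eif4a2 differed by 0.00, Snord82 and Snora75 in Ncl differed by -0.58 and -0.46 beside -0.06 for Ncl, and the 4 in the noncoding gene Snhg12 lay between 0.05 and 0.35 beside 0.24 for Snhg12.

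**Figure D5:**
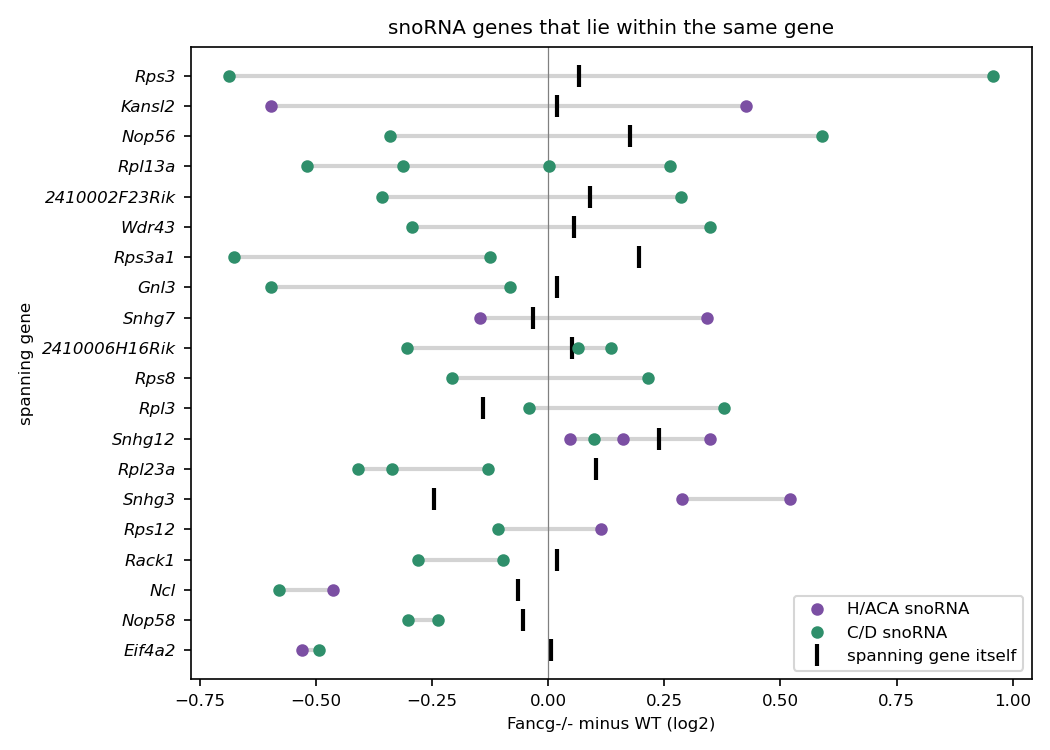
Log2 differences (Fancg-/- minus WT, horizontal axis) of snoRNA genes that lie within the same gene, 1 row for each of the 20 spanning genes, with the spanning gene itself as a black tick where it was measured. The grey line joins snoRNAs of 1 gene, and the Rps3 row is the widest, from -0.69 to 0.96 with the Rps3 tick at 0.07.

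Near-identical snoRNAs of 1 family may share probes or hybridise across, which the sources used here do not settle, so values of such pairs are uncertain. Snord15a and Snord15b lay apart as above. Snord88a and Snord88c, both in 2410002F23Rik, differed by -0.36 and 0.29, and Snord73a and Snord73b, both in Rps3a1, by -0.12 and -0.68. In Snord73b only Fancg-/- 1 stood far below, with 3.69, 4.89 and 5.13 in Fancg-/- samples and 5.02, 5.48 and 5.24 in WT samples. Snord42a and Snord42b, in Rpl23a, differed by -0.41 and -0.13, and Snord49a and Snord49b, in 2410006H16Rik, by -0.30 and 0.06.

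Many snoRNA host genes are known to start with a run of pyrimidines, a feature of genes for the translation machinery. The 50 bases around the annotated start, 40 before it and 10 from it on, are shown from RefSeq (GRCm38.p6) for 3 genes whose snoRNAs lay on both sides of 0 (Rps3, Kansl2 and Nop56), for Snhg12, whose snoRNAs lay together above 0, and for Rplp2, which spans Snora52. They are written 5′ to 3′ on the strand of the gene, and capitals mark the letters CTTTC. Rps3 lies at chr7:99483700-99483749 (minus strand), Kansl2 at chr15:98534260-98534309 (minus strand), Nop56 at chr2:130274372-130274421 (plus strand), Snhg12 at chr4:132308638-132308687 (plus strand) and Rplp2 at chr7:141447611-141447660 (plus strand).
Rps3: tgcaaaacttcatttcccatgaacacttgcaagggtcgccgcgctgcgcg
Kansl2: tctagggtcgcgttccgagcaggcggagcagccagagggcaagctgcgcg
Nop56: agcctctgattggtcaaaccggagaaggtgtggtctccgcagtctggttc
Snhg12: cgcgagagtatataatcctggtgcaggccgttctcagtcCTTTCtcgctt
Rplp2: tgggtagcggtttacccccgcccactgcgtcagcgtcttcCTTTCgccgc
The letters CTTTC stood at the annotated start in Rplp2, just before it and across it in Snhg12, and in no position of the other 3 windows. Of 66 windows of 61 spanning genes 11 held CTTTC on the strand of the gene (16.7%), against 2257 of 32851 windows of all genes (6.87%), and its complement GAAAG was in 1 (1.52%) and 1932 (5.88%) windows. The letters did not part the genes by the side of 0 on which their snoRNAs lay. With snoRNAs on both sides, 2410006H16Rik held CTTTC, and Rpl13a, 2410002F23Rik, Wdr43, Snhg7 and Rps12 did not. With snoRNAs on the same side, Rack1 held it like Snhg12, and Ncl, Nop58, Eif4a2, Gnl3, Rps3a1 and Snhg3 did not. A match is a description of these letters only.

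Length went along with class and difference. By the annotation C/D genes were 45 to 221 bases long with a median of 68, and H/ACA genes 61 to 205 with a median of 121. The 39 snoRNAs of at most 70 bases had a median difference of -0.21 with 9 above 0, the 24 of 71 to 100 bases had -0.08 with 8 above 0, and the 36 longer ones had 0.13 with 20 above 0. Within the C/D class the order was the same, with -0.24 over 37 short genes, -0.12 over 23 of middle length and 0.19 over 5 long ones, a bin that holds few genes. Among the longest C/D genes were Snord15a at 0.96 and Snord15b at -0.69, with annotated lengths of 148 and 145 bases. Across the 99 genes the Spearman correlation of length with the difference was 0.28 and with the SD within groups -0.20, as a description, since all genes share the same 6 arrays. Fancg-/- 1 held the lowest signal for 23 of the 37 short C/D genes, for 10 of the 23 of middle length and for 13 of the 31 long H/ACA genes. Whether class or length goes with the difference cannot be told apart over most of the range, because only 3 H/ACA genes were of at most 100 bases. The recovery of RNA by length was not tested.

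The proteins that work with snoRNAs were read beside them. Of 31 measured genes for snoRNP proteins, their assembly and the ribosomal RNA precursor, 17 differed above 0, and at an unadjusted p under 0.05 there were 4 higher and 0 lower in Fancg-/- samples (6.23% and 6.17% of all genes), none with an adjusted p under 0.05. These 4 were Fbl at 0.36, the methyltransferase fibrillarin of C/D snoRNPs, Znhit3 at 0.33, an assembly factor, Rrp9 at 0.29, a protein of the U3 particle, and Nop2 at 0.21, which methylates rRNA. Fbl had 7.32, 7.14 and 6.86 in Fancg-/- samples, against 6.96, 6.60 and 6.67 in WT samples, and the groups overlapped (SE 0.15, adjusted p = 0.37). The other C/D core proteins Nop56 and Nop58 differed by 0.18 and -0.05. The H/ACA core proteins differed by 0.18 for Dkc1, the pseudouridine synthase dyskerin, 0.15 for Nop10, 0.09 for Nhp2 and 0.00 for Gar1. The core protein Snu13 was not analysed here.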

How the data were processed

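RNA of 3 Fancg-/- and 3 WT samples of sorted E13.5 male PGCs was measured on 6 single-colour Affymetrix arrays. The values the authors deposited are log2 signals with 1 row per Entrez gene. RMA and Partek are named in the submitters' processing notes. Their versions are not stated in the sources used here, nor is a genome build. By the methods only RNA of a high integrity number was used. Of 24479 rows, 23712 were named by a RefSeq table (GRCm38.p6) and 23281 by the platform annotation. Together 23837 had a name and were tested, and 642 were left out. All 99 members had the same symbol in both tables, which is 99 of 133 such symbols in RefSeq.

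Each gene was fitted by limma 3.58.1 under R 4.3.3 (lmFit, eBayes) as Fancg-/- minus WT, with no block. P-values were adjusted by Benjamini-Hochberg over the 23837 genes, and the procedure was tested on simulated data. The number of arrays limits the precision, and an exact two-sided permutation test of 3 against 3 samples cannot go below 0.1. The samples are separate pools of embryos. Members were taken by symbol alone, but the group and the gene lists were chosen with earlier results of these data known. Genes named in the text are members with groups that do not overlap, with the highest signals, ranges or SDs, their families and spanning genes, the snoRNP core proteins and listed genes at an unadjusted p under 0.05. Further, Snord23, Snhg18, genes that span several members and the members in them were named after their values were seen. Spanning genes were to be taken on the same strand, but the annotation has no strand, so any gene whose span holds the member was taken. One spanning gene is not reported here. Alternatives were array weights, equal array medians, an equal-variance test, a robust prior with an intensity trend, renewed quantile normalization, a filter on the dimmest 25% of genes, the replicate number as a block, 1 member a family, and leaving out each array. Same-numbered samples of the 2 genotypes had correlated deviations of -0.14, -0.11 and 0.03, so the numbers were not taken as pairs.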

Additional observations from a re-analysis of the deposited data

How the results depend on the processing

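Of 122 alternative values of lists and counts 12 moved beyond 1 SD or 1.5 times. None of the 297 alternative differences of the 27 named snoRNAs moved by more than 1 SD. Leaving out 1 of 3 arrays cannot move a difference that far, so no stability is read from this. The difference of Snord61 still ran from -0.19 to 0.74 and that of Snord89 from -0.50 to 0.44. For the causes, none was tested. With array weights 3 snoRNAs were lower past 1.5-fold at an unadjusted p under 0.05, against 6, with the share of all genes not computed. With equal array medians the median of the spanning genes was 0.012, against -0.0093. Leaving out each array gave 2 to 17 such lower snoRNAs. There were 2 without Fancg-/- 1 (1.24% of all genes), 17 without Fancg-/- 3 (1.26%) and 3 without WT 2 (0.864%). Higher ones past the fold numbered 5 to 9. There were 5 without Fancg-/- 1 (1.25% of all genes) and without WT 3 (0.831%), and 9 without WT 1 (1.34%). Lower groups without overlap numbered 9 to 35, with 35 without Fancg-/- 3 (13.5% of all genes) and 17 without WT 1 (14.5%), and higher ones 9 to 15, with 15 without WT 2 (14.1%) and 13 without WT 1 (17.2%). The C/D median ran from -0.36 (without Fancg-/- 3) to -0.061, the H/ACA median from -0.02 to 0.16, that of all 99 from -0.21 to -0.01, that of the spanning genes from -0.037 to 0.0051 and that of the snoRNP genes from 0.00 to 0.07. Calls over all genes were 0 to 3, with 3 without WT 1, and 0 under the alternatives that kept all arrays. The median SD within groups stayed between 0.27 and 0.32. With the replicate number as a block, 7 snoRNAs were lower and 6 higher past 1.5-fold at an unadjusted p under 0.05, 0 genes were called, and no other call changed. The share of all genes past the fold was not computed for the block. With 1 member for each of 91 families the median was -0.10.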

Other observations

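Other small nucleolar and Cajal body RNAs outside the Snora and Snord symbols also spread widely. DQ267100, one of 8 further rows that RefSeq annotates as snoRNA, had 5.57, 5.35 and 5.70 in Fancg-/- samples, against 5.93, 7.37 and 7.23 in WT samples, a log2 difference of -1.31 (SE 0.34, limma adjusted p = 0.21) without overlap. AF357425, another of them, had 3.98, 5.24 and 5.61 in Fancg-/- samples, against 5.79, 6.63 and 6.26 in WT samples (-1.29, SE 0.40, adjusted p = 0.28), again without overlap. Of these 8 rows 7 were lower in the Fancg-/- mean, but DQ267101 (-0.005), AF357426 (-0.03) and AF357355 (-0.08) lay close to 0. Among the dimmest 25% of genes were 3 of the 8.

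Scarna genes encode guides that act in Cajal bodies on spliceosomal RNA. Scarna13 had 9.88, 10.26 and 9.86 in Fancg-/- samples, against 9.22, 9.28 and 9.25 in WT samples (0.75, SE 0.12, adjusted p = 0.15), with WT arrays within an SD of 0.031. Scarna3b had 5.48, 5.83 and 5.51 in Fancg-/- samples, against 6.26, 6.35 and 5.998 in WT samples (-0.60, adjusted p = 0.18). Of the 8 Scarna rows 4 were higher and 4 lower in the Fancg-/- mean, and none had an adjusted p under 0.05.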
